A study of Mus musculus with 10 samples.

Results

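The receptors for lysophosphatidic acid (LPA) and autotaxin, the secreted enzyme that makes LPA outside cells, were followed in RNA of isolated mouse jejunal epithelial cells. They were taken from the table by gene symbol, as Lpar1, Lpar2, Lpar3, Lpar4, Lpar5, Lpar6 and Enpp2 (autotaxin), and are 7 of 35275 genes. Of these 7, the 6 other than Lpar4 had a mean of at least 0.1 FPKM (fragments counted on a gene per kilobase of its length, scaled to library depth), as did 15729 genes in all, and only these were tested. All 10 mice were adult C57BL/6 animals, given as male, with Cre fused to a tamoxifen-sensitive receptor under the villin promoter (VillinCreERT2) and with floxed alleles (MYO5Bflox/flox). The 3 control mice were given corn oil in place of tamoxifen, so Cre was present but not activated, and no tamoxifen-treated mouse without the floxed alleles is among these 10. The 4 MYO5B-knockout mice received 2 mg of tamoxifen and then vehicle (bovine serum albumin in saline) for 4 days, and the 3 LPA-treated MYO5B-knockout mice received 2 mg of tamoxifen and LPA at 3 mg/kg for 4 days, all by intraperitoneal injection. No vehicle injections are given for the control mice. The deletion acts where villin is active, that is in epithelial cells, and is not expected in other cells of a preparation. The questions were which LPA receptors the jejunal epithelium carries, and whether loss of MYO5B or LPA treatment changed them.

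LPA is a lipid that acts from outside the cell through 6 receptors coupled to G proteins. LPA1, LPA2 and LPA3 form a family of closely related proteins, whereas LPA4, LPA5 and LPA6 are related to receptors for nucleotides. Through Gi, Gq and G12/13 proteins they act on phospholipase C and cyclic AMP, and in the intestine LPA is known for effects on sodium and chloride transport, epithelial barrier and wound closure. Autotaxin is a lysophospholipase D that cleaves choline from lysophosphatidylcholine, and much of it comes from cells other than epithelium.

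The genes lie apart in the genome. In the coordinates of the table (GRCm38), Lpar1 lies on chromosome 4 from 58435255 to 58553898, Lpar3 on chromosome 3 from 146220961 to 146286214 and Lpar5 on chromosome 6 from 125067920 to 125082472. Lpar2 lies on chromosome 8 from 69822429 to 69831102, Lpar4 on chromosome X from 106920625 to 106933900 and Lpar6 on chromosome 14 from 73237895 to 73243294. Enpp2 lies on chromosome 15 from 54838898 to 54920146. The longest reading frames of the receptors ran from 1035 to 1155 bases. In global alignments of these frames, Lpar1 and Lpar3 shared 61.1% of aligned bases, Lpar1 and Lpar2 60.8%, and Lpar4 and Lpar6 60.7%, against 48.5% for Lpar2 and Lpar4, the least alike of the 15 pairs. The longest identical run between transcripts of any pair was 25 bases, for Lpar2 and Lpar6. Within the GENCODE M21 annotation, 408 exonic bases of Lpar6 are shared with Rb1 on the opposite strand, and whether strand was used in counting is not given. Rb1 held 6282 reads over the 10 mice and Lpar6 463, so the level of Lpar6 is uncertain.

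The 250 bases before an annotated start are shown for the 3 receptors with a mean over 1 FPKM, Lpar1, Lpar3 and Lpar5, since nearly all receptor transcripts measured came from these genes. The sequences are from RefSeq (GRCm38.p6), whose promoter table held all 6 receptors. They lie at chr4:58499404-58499653 on the minus strand for Lpar1, and at chr3:146220711-146220960 and chr6:125067670-125067919 on the plus strand for Lpar3 and Lpar5. Each is printed 5′ to 3′ on the strand of its gene and holds 0 exonic bases of the M21 annotation. The Lpar1 window lies 54495 bases from the gene's start in the table. The windows of 2 other annotated starts, 407 and 605 bases from that start, overlap exons and are not shown, and FPKM of a whole gene do not say which start was used. Capitals mark matches on either strand to 4 motifs that were searched, TATAAA (the TATA box), GGGCGG (a GC box, bound by Sp factors), TTTATNG (CDX factors) and CAAAGNNCA (HNF4).
Lpar1: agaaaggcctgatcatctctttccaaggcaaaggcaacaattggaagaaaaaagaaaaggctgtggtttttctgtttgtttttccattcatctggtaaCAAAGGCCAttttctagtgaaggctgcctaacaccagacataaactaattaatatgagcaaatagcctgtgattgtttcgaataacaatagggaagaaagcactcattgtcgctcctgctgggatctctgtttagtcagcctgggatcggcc
Lpar3: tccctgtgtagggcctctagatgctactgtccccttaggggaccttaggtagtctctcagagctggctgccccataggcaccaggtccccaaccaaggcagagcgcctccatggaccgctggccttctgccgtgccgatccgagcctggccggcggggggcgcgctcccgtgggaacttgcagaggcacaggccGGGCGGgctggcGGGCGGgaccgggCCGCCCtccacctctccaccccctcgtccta
Lpar5: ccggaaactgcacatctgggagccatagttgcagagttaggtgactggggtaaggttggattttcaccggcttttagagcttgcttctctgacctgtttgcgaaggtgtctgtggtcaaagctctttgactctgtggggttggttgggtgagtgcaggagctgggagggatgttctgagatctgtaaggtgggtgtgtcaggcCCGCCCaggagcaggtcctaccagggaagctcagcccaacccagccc
The Lpar1 window held 1 match to CAAAGNNCA, letters present in 5.49% of 32817 windows of the same length. The Lpar3 window held 3 matches to GGGCGG and the Lpar5 window 1, letters present in 32.7% of windows. No matches overlapped in these windows. TATAAA, present in 12.4% of windows, and TTTATNG, present in 9.81%, had no match in them. Lpar3 was the richest in G and C of these windows at 69.6%, above 90.2% of all windows, and Lpar1 was at 41.6% and Lpar5 at 56%. The 2 Lpar1 windows not shown were at 62% and 70% and held 1 match to GGGCGG each, so the G and C content and the motifs of Lpar1 depend on which start is taken.

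The depth was between 10949420 and 24470409 reads on genes per mouse. Control mouse 2 and MYO5B-knockout mouse 3 had libraries that stood apart, with 12242 and 12601 detected genes against 17309 to 18267 in the other 8, and with 17.4% and 18% of reads on mitochondrial genes against 1.98% to 3.5%. They are called the few-gene libraries here, and each result that rests on them is also given without them, an alternative chosen after seeing the data. Although the mice are given as male, MYO5B-knockout mouse 3 and LPA-treated mouse 1 had 0 reads on the 4 Y-linked genes examined. For LPA-treated mouse 1, a line of the labels gives vehicle and another gives LPA, so values without it are given where they matter. Myo5b itself, the deleted gene, ranged over 16.5 to 32 FPKM in the control group, 10.5 to 13.6 FPKM in the MYO5B-knockout group and 10.3 to 11.7 FPKM in the LPA-treated group. The summed FPKM of 7 epithelial markers lay between 6519 and 12152, as against 0.306 to 7.29 for 8 fibroblast markers and 4.25 to 52.2 for 9 leukocyte markers. Of the 7, Vil1, which encodes villin, ran from 69.3 FPKM in MYO5B-knockout mouse 3 to 895 FPKM in control mouse 4. In such bulk samples, fewer cells of a type and less RNA per cell cannot be told apart.

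The epithelium carried mainly Lpar5, Lpar1 and Lpar3. On the FPKM scale, which is per length and so allows genes to be compared, the mean levels over the 10 mice were 8.78 for Lpar5, 6.47 for Lpar1 and 2.75 for Lpar3. Lpar6 followed at 0.452 FPKM, Lpar2 at 0.426 and Enpp2 at 0.287, and Lpar4 was last with a mean of 0.0018 FPKM. The order was tested over all 21 pairs of these genes, as differences of log2(FPKM + 0.1) within each mouse, by a two-sided exact permutation test that flips signs (smallest p possible 0.00195, Benjamini-Hochberg adjusted over the pairs). The mice of the 3 groups entered this test together, although the order of the first 2 genes was not the same in each. The control group averaged 8.87 FPKM of Lpar5 and 10.3 FPKM of Lpar1, the MYO5B-knockout group 10.5 and 4.47 FPKM, and the LPA-treated group 6.40 and 5.26 FPKM. Of the 21 pairs, 17 differed at an adjusted p under 0.05. Lpar5 and Lpar1 did not differ beyond their spread, with Lpar5 higher in 6 of 10 mice, which were 1 of 3 control, 4 of 4 MYO5B-knockout and 1 of 3 LPA-treated mice (adjusted p = 0.938, exact permutation test). Lpar1 lay above Lpar3 in 10 of 10 mice, by a mean of 1.60 on the log2 scale (SD 1.08, adjusted p = 0.00456, exact permutation test). Lpar3 lay above Lpar6 in 9 of 10 mice, by 2.06 on the log2 scale (SD 1.11, adjusted p = 0.00586, exact permutation test), and both were at 0 in the other. Lpar6, Lpar2 and Enpp2 could not be ordered, with adjusted p-values of 0.72 for Lpar6 and Lpar2, 0.153 for Lpar2 and Enpp2 and 0.376 for Lpar6 and Enpp2 in the same exact permutation test. Without the 2 few-gene libraries, the same 4 pairs were the ones that missed an adjusted p of 0.05. The order in FPKM rests on the deposited gene lengths, from 1458 bases for Lpar5 to 5800 for Lpar2, with 3543 for Lpar1. In reads over the 10 mice, Lpar1 came before Lpar5, at 3901 against 2460.

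**Figure D1:**
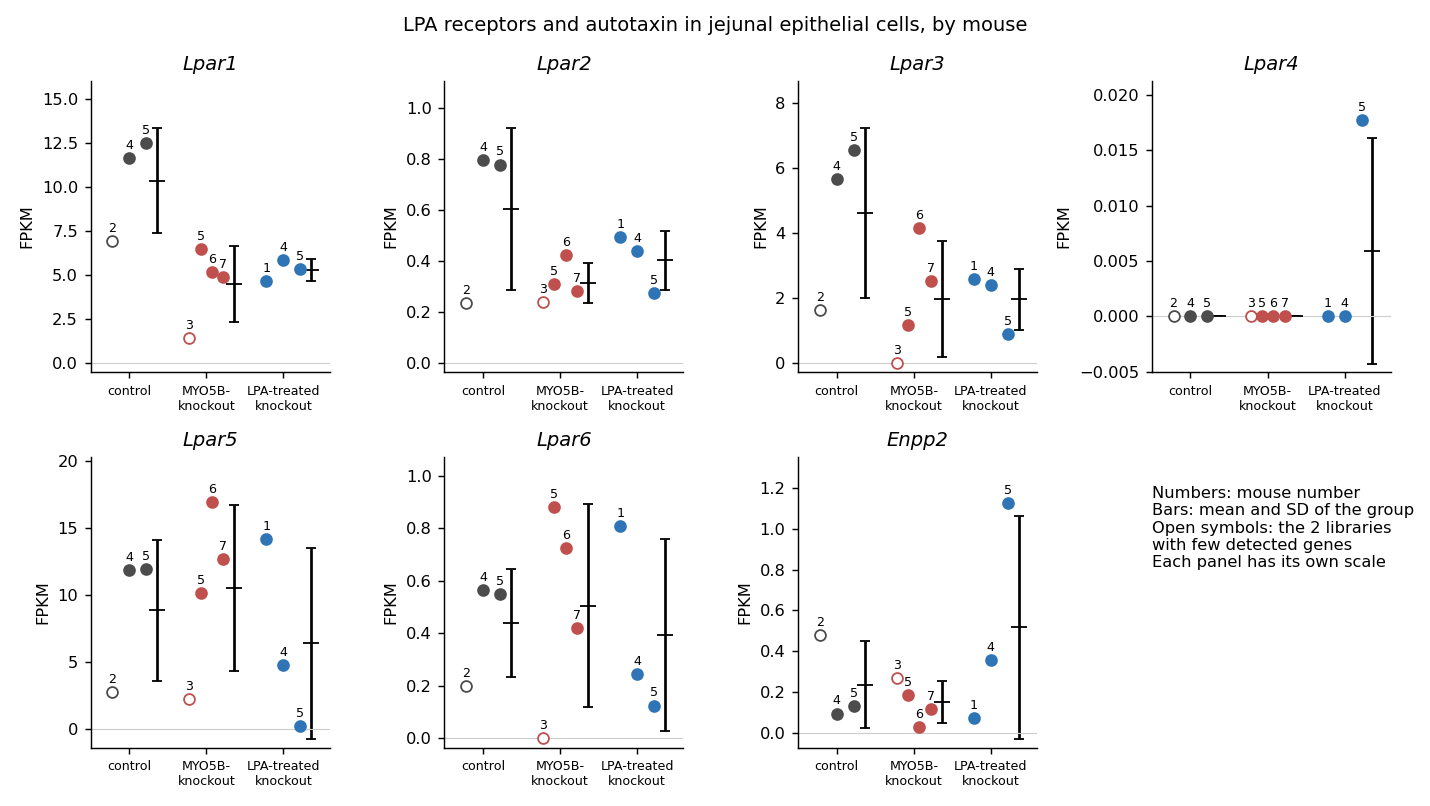
FPKM of the 6 LPA receptors and Enpp2 by group, each panel on its own linear scale. Points are mice, labelled by mouse number, bars give the mean and SD of each group (n = 3, 4 and 3), and open symbols are control mouse 2 and MYO5B-knockout mouse 3. Lpar1 lies at 6.93 FPKM or more in the control mice and at 6.45 FPKM or less in the MYO5B-knockout mice, and Lpar5 in LPA-treated mice spreads from 0.257 to 14.2 FPKM.

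Lpar1, which encodes LPA1, a receptor of Gi, Gq and G12/13 found on epithelium and on fibroblasts, was lower in every MYO5B-knockout library than in any control library. Control mice 2, 4 and 5 held 6.93, 11.6 and 12.5 FPKM of Lpar1. MYO5B-knockout mice 3, 5, 6 and 7 held 1.39, 6.45, 5.17 and 4.87 FPKM. The highest MYO5B-knockout mouse thus lay below the lowest control mouse, although by less than the spread within either group. Groups that did not overlap, with MYO5B-knockout mice lower, were found for 6.2% of all genes tested. The log2 fold change of FPKM + 0.1 was -1.34, a level 2.53-fold lower in MYO5B-knockout mice (standard error 0.50, 95% interval -2.45 to -0.23, not adjusted for the number of genes), and the adjusted p in limma of 0.199 missed 0.05. Without the 2 few-gene libraries the difference passed the threshold, at -1.13 with an adjusted p of 0.0349 in limma, where 4.95% of all genes were called. It also passed on the reads recovered from the FPKM, at -1.53 with edgeR (adjusted p = 0.0459) and -1.57 with DESeq2 (adjusted p = 0.000279). These called 2.82% and 11.6% of all genes, against 2.01% for limma on all 10 libraries. The difference passed too after median-ratio scaling or quantile normalization of the libraries (adjusted p in limma = 0.0362 and 0.0243). Of 15729 genes, 598 and 804 were called there. Lpar1 was lower in each of 21 alternatives and called in these 5. With each mouse left out in turn, its log2 fold change ranged from -1.60 with control mouse 2 left out to -0.87 with MYO5B-knockout mouse 3 left out.

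Over all genes tested, the median difference between MYO5B-knockout and control mice was 0.29 on the log2 scale, and 0.039 after median-ratio scaling. Relative to these medians, Lpar1 lay at -1.62 and -1.67. Summed leukocyte markers moved in the same direction, although not every member did. They summed to 21.3 to 52.2 FPKM in the control group as against 4.25 to 20.4 FPKM in the MYO5B-knockout group, with all 9 markers detected in some library and control mice 4 and 5 highest. Cd3g and Cd79a separated the groups (MYO5B-knockout lower), and the remaining members, Csf1r among them, overlapped. Itgam leaned the other way. Its control values reached 1.72 FPKM at most, while MYO5B-knockout mice 5, 6 and 7 held 2.21, 2.89 and 2.28 (mouse 3, 0.0951). Summed Paneth cell markers (6 genes) also peaked in control mice 4 and 5, at 10491 and 9468 FPKM against 1057 to 6088 FPKM in the other 8 mice. Most of this sum was Defa24, at 6748 and 6101 FPKM in control mice 4 and 5. Defa17, Defa24, Ang4 and Itln1 were highest in these mice, but Lyz1 and Mmp7 were highest in MYO5B-knockout mouse 5 (1161 and 63 FPKM). Enterocyte markers (7 genes) summed to 28046 to 37941 FPKM in control mice and to 13773 to 24424 FPKM in MYO5B-knockout mice. Apoa1 and Fabp1 were the largest members of this sum in every library. Only Apoa1 and Lct separated the groups (MYO5B-knockout lower), and the remaining members overlapped. Alpi leaned the other way. Its control values reached 540 FPKM at most, while MYO5B-knockout mice 5, 6 and 7 held 1005, 1081 and 878 (mouse 3, 170). Tuft cell markers (6 genes) had median sums of 18.5 and 9.52 FPKM in these groups, which overlapped. The part of these cells in the Lpar1 values was not tested.

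Lpar3, which encodes LPA3, a receptor known for embryo implantation and coupled to Gi and Gq, reached 1.63, 5.65 and 6.55 FPKM in control mice 2, 4 and 5. MYO5B-knockout mice 3, 5, 6 and 7 had 0, 1.16, 4.16 and 2.52 FPKM of it. The value of 0 belonged to MYO5B-knockout mouse 3, where 3 reads would have given 0.11 FPKM. Only control mouse 2 made the groups overlap. For Lpar3 the log2 fold change was -1.89 (standard error 1.13, 95% interval -4.40 to 0.62, adjusted p in limma = 0.423). It was -1.36 without the 2 few-gene libraries (adjusted p in limma = 0.21), and between -2.73 and -0.74 in 21 alternatives, none of which called it.

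Lpar2, which encodes LPA2, a receptor with a tail that binds PDZ scaffolds and is known to restrain the chloride channel CFTR, was low throughout. Its 3 control values were 0.234, 0.795 and 0.778 FPKM. Its 4 MYO5B-knockout values were 0.236, 0.31, 0.422 and 0.283 FPKM. Control mouse 2 lay at the level of the MYO5B-knockout mice and control mice 4 and 5 above all of them. The difference was -0.65 on the log2 scale (standard error 0.51, 95% interval -1.79 to 0.49, adjusted p in limma = 0.55). Leaving out the 2 few-gene libraries gave -1.03 (adjusted p in limma = 0.123). Lpar2 rested on 15 to 79 reads per mouse. It was called only by DESeq2 (-1.17, adjusted p = 0.0382), among 11.6% of all genes, and not by edgeR (adjusted p = 0.282).

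Lpar5, which encodes LPA5, a receptor known to bring the sodium/proton exchanger NHE3 to the brush border, showed no difference that could be told from its spread. Its 3 control values were 2.79, 11.9 and 11.9 FPKM. Its 4 MYO5B-knockout values were 2.26, 10.1, 16.9 and 12.7 FPKM. The lowest value of each group came from control mouse 2 and MYO5B-knockout mouse 3. The log2 fold change was 0.19, with a 95% interval as wide as -2.36 to 2.74 (adjusted p in limma = 0.953), and its sign turned in 6 of 21 alternatives, scaling among them. Leaving out the 2 few-gene libraries gave 0.12 (95% interval -2.93 to 3.18).

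Lpar6, which encodes LPA6, a receptor coupled to G12/13 and known for hair growth, was low too. Control mice 2, 4 and 5 had 0.201, 0.565 and 0.55 FPKM, and MYO5B-knockout mice 3, 5, 6 and 7 had 0, 0.881, 0.725 and 0.419 FPKM. The groups overlapped. Its log2 fold change was -0.16 (95% interval -2.02 to 1.70, adjusted p in limma = 0.943), and its sign turned without MYO5B-knockout mouse 3, where Lpar6 had 0 reads (0.56). Lpar4, which encodes LPA4, a receptor known from blood and lymph vessels, had 0 reads in 9 of the mice and 1 read in LPA-treated mouse 5. A count of 0 allows up to 3 reads, which is between 0.0289 and 0.0647 FPKM for Lpar4 in those 9 mice, counting error only. Expression of Lpar4 above that limit was not detected at this depth.

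Of the 6 genes tested, limma called 0 between MYO5B-knockout and control mice, where it called 2.01% of all genes. An unadjusted p under 0.05 in limma was found for 1 of the 6, Lpar1, and for 2764 of 15729 genes in all. Of the 6, edgeR called 1, where it called 2.82% of all genes, and DESeq2 called 2, where it called 11.6%. Their median log2 fold change was -0.50, with 5 below 0 and 1 above, beside a median of 0.29 over all genes tested. Myo5b itself, the deleted gene, was not called by limma either (log2 fold change -0.96, adjusted p in limma = 0.115). It was lower in each of 21 alternatives and called in 6 of them. A gene left uncalled here is thus not shown to be unchanged.

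**Figure D2:**
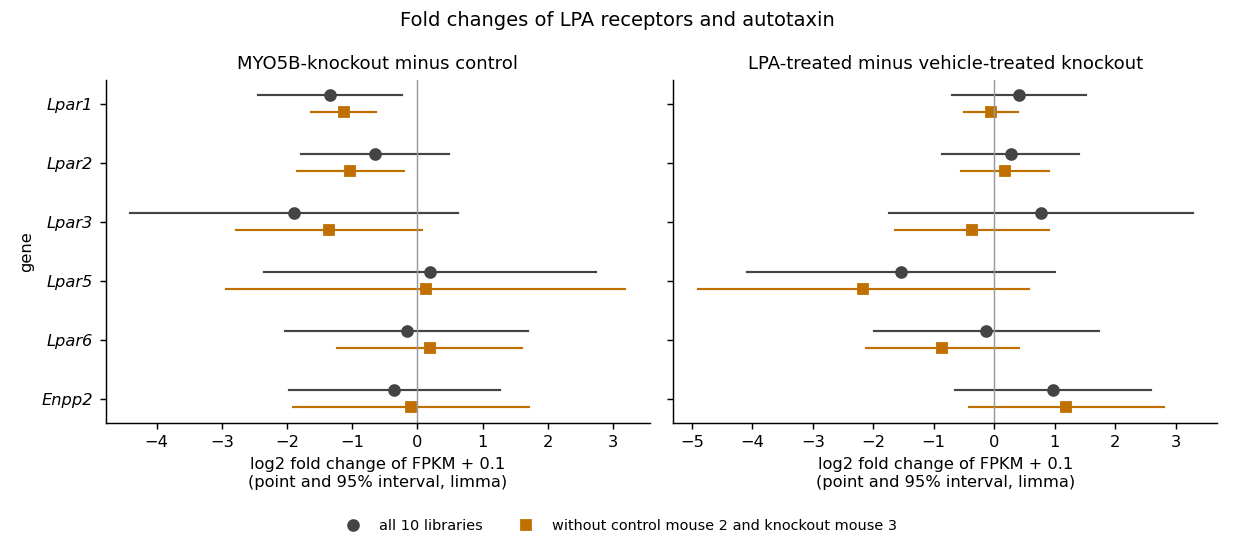
log2 fold changes of FPKM + 0.1 with 95% intervals from limma, for MYO5B-knockout minus control mice (left) and LPA-treated minus vehicle-treated MYO5B-knockout mice (right), on separate scales. Circles are all 10 libraries and squares leave out control mouse 2 and MYO5B-knockout mouse 3. The left interval of Lpar1 lies below 0 in both fits (-2.45 to -0.23 and -1.63 to -0.63), and every interval on the right spans 0.

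The make-up of the receptor transcripts was compared as shares of their sum. Lpar5 took 23.7%, 39% and 36.9% of the summed FPKM of the 6 receptors in control mice 2, 4 and 5. It took 58.1%, 53.5%, 61.8% and 61.1% in MYO5B-knockout mice 3, 5, 6 and 7. Its share was 62.4%, 34.9% and 3.76% for LPA-treated mice 1, 4 and 5, of which mice 4 and 5 lay within or below the control mice. The mean share was 58.6% ± 3.75 (SD, n = 4) against 33.2% ± 8.28 (SD, n = 3). The share of Lpar1 was 28% ± 8.22 (SD, n = 4) in MYO5B-knockout mice and 45.2% ± 11.8 (SD, n = 3) in control mice. The level of Lpar5 was 0.404, 1.02 and 0.953 times that of Lpar1 in control mice and 1.62, 1.57, 3.27 and 2.61 times in MYO5B-knockout mice. For LPA-treated mice 1, 4 and 5 it was 3.05, 0.819 and 0.0486 times. Control and MYO5B-knockout mice did not overlap in this ratio, with the few-gene libraries on the side of their own groups, but the same was so, with MYO5B-knockout mice higher, for the ratio to Lpar1 of 49.2% of the genes tested other than Lpar1. The separation thus does not set Lpar5 apart. Such ratios within a library do not depend on how libraries are scaled. Such a ratio does not say which of Lpar1 and Lpar5 differed. The ratio was examined after the values had been seen, and it is given without a test. The summed FPKM of the 6 receptors overlapped between the groups, at 11.8 to 32.3 in control mice and 3.88 to 27.4 in MYO5B-knockout mice. Without the 2 few-gene libraries it did not overlap, at 30.5 and 32.3 in control mice and 18.9, 27.4 and 20.8 in MYO5B-knockout mice. That rests on 2 and 3 mice, with libraries left out after seeing the data. It was not tested or set beside all genes, so it does not show a lower sum in MYO5B-knockout mice.

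**Figure D3:**
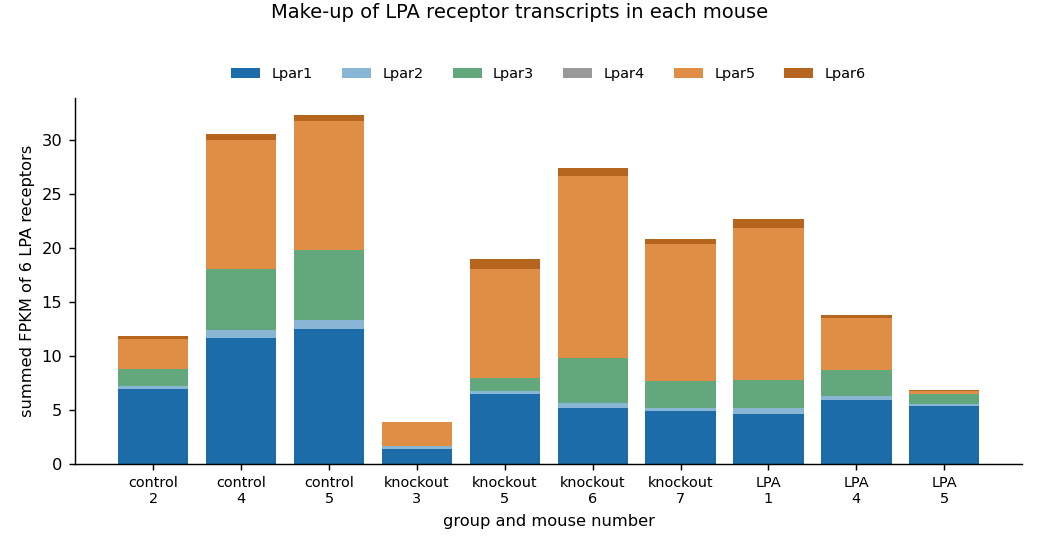
Summed FPKM of the 6 LPA receptors in each mouse, stacked by receptor, with Lpar4 too low to be seen. Lpar5 makes up 53.5% to 61.8% of the bar in the MYO5B-knockout mice and 23.7% to 39% in the control mice, and 3.76% to 62.4% in the LPA-treated mice.

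LPA treatment was compared with vehicle among MYO5B-knockout mice, to ask whether the ligand changed its own receptors or autotaxin. None of the 6 genes tested was called by limma, edgeR or DESeq2, and none had an unadjusted p under 0.05 in limma, where 0.0% of all genes were called (459 of 15729 at an unadjusted p under 0.05). edgeR also called 0 genes in all, and DESeq2 called 7 (0.0445%). This comparison and the preceding one share the 4 MYO5B-knockout mice. Without LPA-treated mouse 1, the mouse with the unclear label, limma again called 0 of the 6. An unadjusted p under 0.05 in limma was then found for 2 of them, Lpar5 and Enpp2, and for 745 of 15729 genes in all. The median log2 fold change of the 6 genes was 0.34, beside 0.11 over all genes tested.

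Lpar1 was at 4.64, 5.86 and 5.30 FPKM for LPA-treated mice 1, 4 and 5, within the range of the MYO5B-knockout mice and below all control mice. Its log2 fold change was 0.42 (95% interval -0.69 to 1.53, adjusted p in limma = 1), and -0.057 (95% interval -0.50 to 0.39) without the 2 few-gene libraries. In these mice Lpar2 was at 0.49, 0.438 and 0.272 FPKM, and Lpar3 at 2.59, 2.39 and 0.873 FPKM. For Lpar2 and Lpar3 the log2 fold changes were 0.27 (95% interval -0.87 to 1.41) and 0.78 (95% interval -1.73 to 3.28), and both groups overlapped. That of Lpar3 turned to -0.37 without MYO5B-knockout mouse 3.

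The LPA-treated mice differed widely among themselves in Lpar5. It was at 14.2 FPKM in mouse 1, 4.80 FPKM in mouse 4 and 0.257 FPKM in mouse 5, which are 505, 121 and 5 reads. Mouse 1 lay within the range of the MYO5B-knockout mice and mouse 5 below every other mouse of the study. The log2 fold change of Lpar5 was -1.54 (standard error 1.15, 95% interval -4.09 to 1.01, adjusted p in limma = 1). It was -0.028 without LPA-treated mouse 5 and -2.69 without LPA-treated mouse 1, so it rested on these mice. Leaving out the 2 few-gene libraries gave -2.16 (adjusted p in limma = 0.48). The library of LPA-treated mouse 5 had 13324912 reads on genes and 3.5% mitochondrial reads, the fewest and the most of the 8 libraries other than the few-gene ones. It also had the least Vil1 of these 8, at 107 FPKM. The part of any of these in the Lpar5 value was not tested. Lpar6 followed the same order, at 0.81, 0.246 and 0.125 FPKM for LPA-treated mice 1, 4 and 5 (log2 fold change -0.13, 95% interval -1.99 to 1.73). It was -0.86 without MYO5B-knockout mouse 3, -0.70 without LPA-treated mouse 1 and -1.42 without these 2 libraries, which had no Y-linked reads (adjusted p in limma = 0.457, unadjusted 0.0342).

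Enpp2 went the opposite way among these mice. LPA-treated mice 1, 4 and 5 had 0.0722, 0.357 and 1.13 FPKM of it. MYO5B-knockout mice 3, 5, 6 and 7 had 0.269, 0.188, 0.0288 and 0.117 FPKM, and control mice 2, 4 and 5 had 0.48, 0.0956 and 0.134 FPKM. LPA-treated mouse 5 was the highest of the study and LPA-treated mouse 1 lay within the MYO5B-knockout mice. Autotaxin transcripts were scarce, with 2 to 51 reads per mouse and 141 in all. With LPA its log2 fold change was 0.97 (standard error 0.73, 95% interval -0.64 to 2.59, adjusted p in limma = 1), 0.26 without LPA-treated mouse 5 and 1.68 without LPA-treated mouse 1. Between MYO5B-knockout and control mice it was -0.35 (95% interval -1.97 to 1.26, adjusted p in limma = 0.841), and 0.12 without control mouse 2. Leaving out the 2 few-gene libraries gave 1.19 with LPA and -0.095 between MYO5B-knockout and control mice. Enpp2 was called in no alternative of either comparison.

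Summed markers of some other cell types were highest in mice with much Enpp2, but not every list or member followed it. The summed level of 8 fibroblast markers, all detected in some library, was 7.29 and 7.17 FPKM for LPA-treated mice 4 and 5 and 3.75 FPKM in control mouse 2, the 3 mice with the most Enpp2. It lay between 0.306 and 1.18 FPKM in the other 7 mice. By group it was 0.44 to 3.75 FPKM (control), 0.306 to 1.06 FPKM (MYO5B-knockout) and 1.18 to 7.29 FPKM (LPA-treated). In control mouse 2 the largest member was Col1a2, at 1.83 FPKM, while Dcn, Lum and Dpt were at 0. Summed markers of enteric glia and neurons, of which 5 of 6 were detected in some library, were at 15.4 and 16.5 FPKM for LPA-treated mice 4 and 5. They were at 4.84 FPKM or less in the other 8 mice, among them control mouse 2 at 1.18 FPKM. Summed endothelium markers (7 genes) were highest in MYO5B-knockout mouse 7, at 7.22 FPKM, where Enpp2 was at 0.117 FPKM. The part of such cells in the Enpp2 values was not tested.

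**Figure D4:**
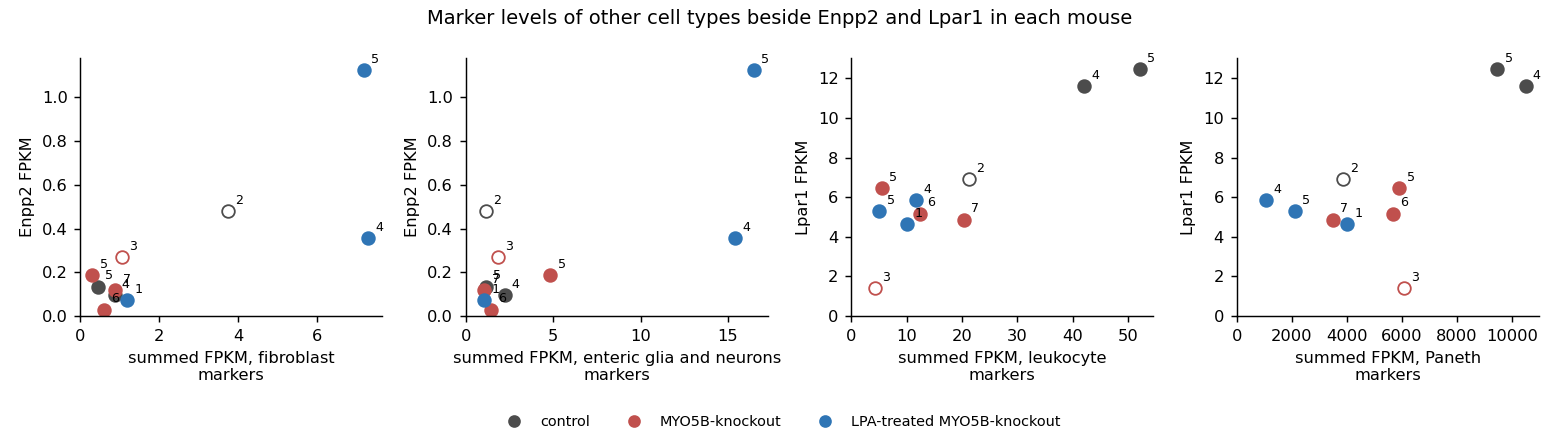
Enpp2 against summed fibroblast markers and summed markers of enteric glia and neurons, and Lpar1 against summed leukocyte and Paneth cell markers, all in FPKM on linear axes. Points are mice with their mouse numbers, and open symbols are control mouse 2 and MYO5B-knockout mouse 3. LPA-treated mice 4 and 5 stand apart in fibroblast markers (7.29 and 7.17 FPKM), and control mice 4 and 5 in leukocyte markers (42 and 52.2 FPKM).

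Across the 10 mice, the levels of these genes varied together to different degrees. Pearson's r of log2(FPKM + 0.1) was -0.94 for Lpar5 and Enpp2 and -0.96 without the 2 few-gene libraries. It was 0.76 for Lpar5 and Lpar6 (0.86 in the 8 libraries) and 0.88 for Lpar1 and Lpar3 (0.62 in the 8 libraries), but 0.32 for Lpar1 and Lpar5. The values of a mouse share their library, its depth and its cell make-up, so these are descriptions of 10 libraries.

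The genes most like each of them were sought among all genes tested by the same r. For Lpar1 they were Mfsd9, a gene of a transporter family (r = 0.97, and 0.94 in the 8 libraries), Ttc39c (0.97 and 0.91) and Gas6, a ligand of TAM receptor kinases (0.97 and 0.91). Gas6 was at 5.80, 14.6 and 17.5 FPKM in control mice and did not exceed 2.73 FPKM in any MYO5B-knockout mouse. For Lpar3 they were Arl4d, a small GTPase (0.98 and 0.93), Ttyh2, of a chloride channel family (0.98 and 0.94), and Heatr5a (0.98 and 0.96). For Lpar5 they included Zfp27, a zinc finger protein (0.97 and 0.99), and Med19, a subunit of Mediator (0.97 and 0.97).

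For the scarcer genes the likeness rested on few reads. Lpar2 was most like the immunoglobulin light chain segments Igkv2-137 (0.96 and 0.96) and Igkv4-68 (0.96 and 0.94) and Gm16208, annotated as antisense (0.95 and 0.93). All 3 were at 0 in control mouse 2 and highest in control mice 4 and 5. Lpar6 was most like Mast2, a kinase (0.99 and 0.98), Lrrc8d, a subunit of volume-regulated anion channels (0.98 and 0.96), and Trim26 (0.98 and 0.96). Enpp2 was most like Pdzk1ip1, a small membrane protein (0.96 and 0.96), Gm17066 (0.95 and 0.95) and Zcrb1, a splicing factor (0.94 and 0.98). When sought over the 8 libraries instead, the 3 most alike were other genes for each of Lpar1, Lpar2, Lpar3, Lpar5, Lpar6 and Enpp2. For Lpar1 they were then Sesn1 (0.79 in the 10 libraries and 0.99 in the 8), Cyp3a25 (0.78 and 0.99) and Ccl25 (0.94 and 0.98). The genes named as most alike thus depend on the 2 few-gene libraries.

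The other genes of LPA metabolism and signalling were taken from 6 lists with 59 genes, of which 52 were tested. Between MYO5B-knockout and control mice, limma called 1 of the 52, lower in MYO5B-knockout mice, where 0.884% of all genes were called lower. With LPA, 0 of the 52 were called in limma, 0 with edgeR and 0 with DESeq2. In limma, 2 of the 52 had an unadjusted p under 0.05 with LPA, as had 459 of 15729 genes in all. Between MYO5B-knockout and control mice, DESeq2 called 6 of the 52, where it called 11.6% of all genes, so its calls named below do not set these lists apart. Of 10 genes that make LPA inside cells or from phosphatidic acid, 8 were tested and 0 called in limma (6 above 0 and 2 below, median log2 fold change 0.39). DESeq2 called 1 of them, Gpam, a mitochondrial glycerol-3-phosphate acyltransferase with a mean of 0.698 FPKM, higher in MYO5B-knockout mice (log2 fold change 2.65, adjusted p = 0.0459), and edgeR called 0. The highest were Gpat3 (listed as Agpat9), a glycerol-3-phosphate acyltransferase at a mean of 59.6 FPKM, Gdpd1, a lysophospholipase D at 48.3 FPKM, and Liph, a phospholipase that releases LPA at the membrane, at 20.2 FPKM. Gpat3, Gdpd1 and Liph each exceeded Enpp2 in mean level, on the same per-length scale.

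Genes that remove LPA held the called gene. Agpat3, an acyltransferase that turns LPA into phosphatidic acid, averaged 27.1 ± 3.15 FPKM (SD, n = 3) in the control group, 10.5 ± 0.926 FPKM (SD, n = 4) in the MYO5B-knockout group and 10.4 ± 2.89 FPKM (SD, n = 3) in the LPA-treated group. It fell by 1.35 on the log2 scale in MYO5B-knockout mice (adjusted p in limma = 0.0353), and by 1.5 without the 2 few-gene libraries (adjusted p in limma = 0.0216). The call was lost without any of control mice 4 and 5, MYO5B-knockout mice 5, 6 and 7 and LPA-treated mice 4 and 5 (the adjusted p in limma between 0.0519 and 0.156), while the log2 fold change stayed between -1.45 and -1.28. Without the 2 few-gene libraries, where 4.95% of all genes were called, Acp6, a phosphatase of LPA, was called too (-1.23, adjusted p in limma = 0.0308). The highest of the 7 genes, Plpp2 (listed as Ppap2c), a lipid phosphate phosphatase, was at 172 FPKM, followed by Agpat2 at 127 FPKM and Agpat1 at 59.9 FPKM. Of the 7, 3 had log2 fold changes above 0 and 4 below, with a median of -0.42.

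Downstream of the receptors, 17 of 17 G proteins and effectors were tested and 0 were called in limma (11 above 0, 6 below, median 0.25, beside 0.29 for all genes), while DESeq2 called Plcb2, a phospholipase C, lower (-2.04, adjusted p = 0.0197). Gna11 was at 143 FPKM, Gnai2 at 141 FPKM and the GTPase Rhoa at 140 FPKM. Of 8 scaffolds and transport targets, limma and edgeR called 0 (in limma 5 above 0, 3 below, median 0.087). DESeq2 called 1, Pdzk1, a PDZ scaffold of the brush border, lower in MYO5B-knockout mice (-3.89, adjusted p = 0.0253). Its level was between 3.47 and 52.6 FPKM in control mice and between 0 and 5.85 FPKM in MYO5B-knockout mice, so the groups overlapped, and its adjusted p in limma was 0.223 at a log2 fold change of -3.93. Slc9a3r1, the scaffold NHERF1, was at 638 FPKM, Slc26a3, a chloride and bicarbonate exchanger, at 24.6 FPKM and Slc9a3, the exchanger NHE3, at 11.1 FPKM. Slc9a3r2, the scaffold NHERF2 known to bind LPA2, was at 0.579 FPKM. Among 10 other lysophospholipid receptors, 5 were tested and 0 called in limma and edgeR (in limma 1 above 0, 4 below, median -0.73). Gpr55, a receptor for lysophosphatidylinositol, was called lower in MYO5B-knockout mice by DESeq2 alone (-1.77, adjusted p = 0.00479, against 0.221 in limma), and Gpr34, a receptor for lysophosphatidylserine, only in limma after quantile normalization. Gpr55 had the highest mean at 1.98 FPKM, followed by S1pr2 at 0.444 FPKM and P2ry10 at 0.38 FPKM. Gpam, Plcb2, Pdzk1 and Gpr34 were named after their values were seen.

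Immediate early genes and YAP targets showed 4 of 7 above 0 between MYO5B-knockout and control mice (median 0.28) and 6 of 7 above 0 with LPA (median 0.91, beside 0.11 for all genes), and limma, edgeR and DESeq2 called 0 in either comparison. Egr1, an immediate early transcription factor, averaged 1.48 ± 0.0799 FPKM (SD, n = 3) in the control group, 3.64 ± 1.36 FPKM (SD, n = 4) in the MYO5B-knockout group and 6.63 ± 1.08 FPKM (SD, n = 3) in the LPA-treated group. Ccn1 (listed as Cyr61), a matrix protein and YAP target, was at 0.765 ± 0.213, 0.344 ± 0.251 and 1.93 ± 0.872 FPKM in the same groups. Egr1 and Ccn1, named here after their values were seen, were the 2 genes of the list whose LPA-treated and vehicle-treated mice did not overlap, as was so with LPA-treated mice higher for 3.56% of all genes. Their log2 fold changes with LPA were 0.91 and 2.39 (adjusted p in limma = 1 for both). Fos, the highest of the list at 56.2 FPKM, and Srf at 18.9 FPKM had log2 fold changes with LPA of 0.69 and -0.14. Fibroblast and glial markers were highest in LPA-treated mice 4 and 5, as given above, and their part in these values was not tested.

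**Figure D5:**
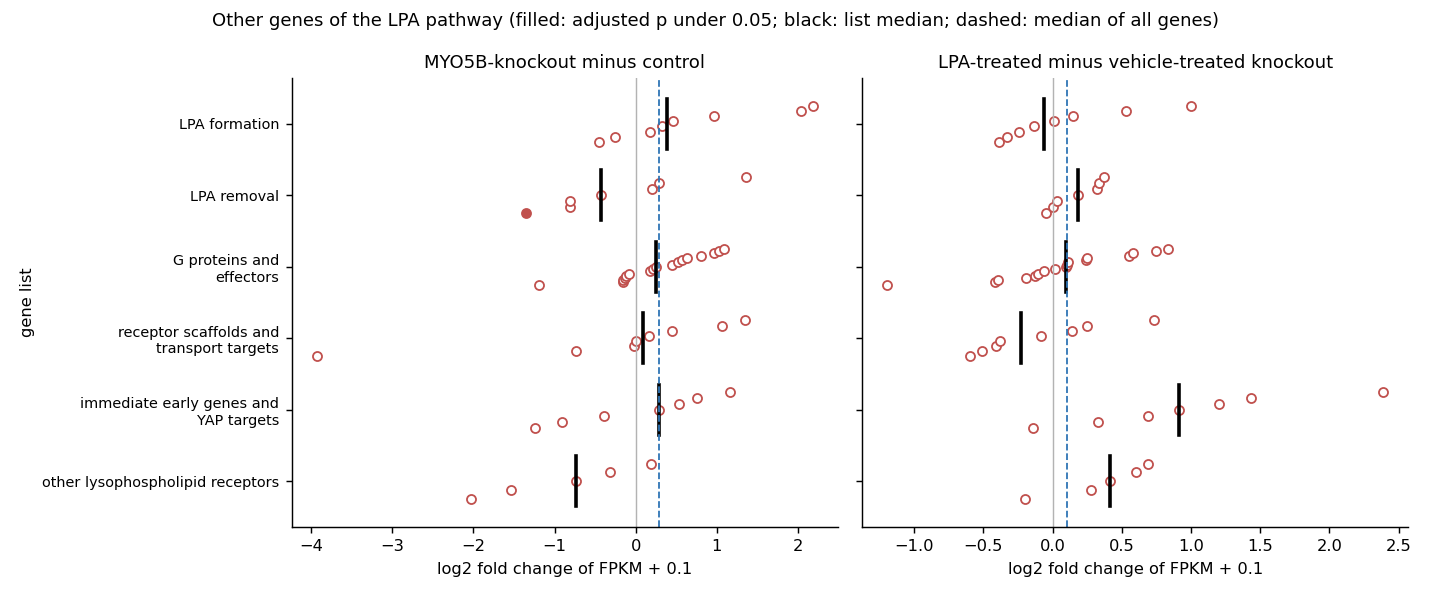
log2 fold changes of FPKM + 0.1 for the 52 tested genes of 6 lists, for MYO5B-knockout minus control mice (left) and LPA-treated minus vehicle-treated MYO5B-knockout mice (right), on separate scales. Each circle is a gene, filled where the adjusted p in limma was under 0.05, black bars are list medians and dashed lines the medians of all genes tested (0.29 and 0.11). Agpat3 is the only filled circle, at -1.35, and the list of immediate early genes and YAP targets has its median at 0.91 on the right.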

How the data were processed

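RNA of jejunal epithelial cells of 10 mice was sequenced as poly(A)-selected libraries, 1 per mouse. Per the labels the processing used STAR 2.5, TopHat, HTSeq 0.6.1 and DESeq2 on GRCm38 (mm10); strand use in counting is not given in the sources used here. The authors deposited FPKM for all genes, without stated scaling between libraries, and read counts for some genes. FPKM times the deposited gene length, divided by the value of 1 read in each library, gave whole reads for 100% of values above 0 (within 0.01 reads or 1e-06 of the count, whichever is larger), and 63 of 63 deposited counts were identical to the recovered reads after rounding. The authors' lists of fold changes, p-values and enriched pathways were not used.

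The 3 groups were fitted in 1 limma (3.58.1, R 4.3.3) model with a trended variance on log2(FPKM + 0.1), which understates changes of low genes, on genes whose mean reached 0.1 FPKM. Tests were two-sided and Benjamini-Hochberg adjusted over all 15729 genes. Alternatives were pseudocounts of 1 and 0.01, no filter, a mean of at least 1 FPKM, median-ratio scaling, quantile normalization, edgeR (4.0.16) quasi-likelihood and DESeq2 (1.42.0) on recovered reads, only the 2 groups compared, and each library left out. Leaving out the 2 few-gene libraries, or the 2 with no Y-linked reads, was added after seeing the data. Whether the mice were separate litters or batches is not given, so p-values measure the spread between these samples. Scripts were tested on simulated data. Named genes were the 6 receptors and Enpp2, per pathway list the called genes (at most 6) and the 3 with the highest mean, the 3 genes with the highest r to each, and Myo5b, apart from items that are not reported here; others are said to be chosen after seeing their values. The members and lists were chosen with earlier results of these data known.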

Additional observations from a re-analysis of the deposited data

Results flagged for a closer look

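Only the group of 4 MYO5B-knockout mice was checked for a mouse that stood apart, and the groups of 3 were not checked. In it, 15 measures were examined for a mouse whose gap to the nearest other mouse passed Dixon's 95% critical value for 4 samples. Chance gives about 1 in 20 such measures. MYO5B-knockout mouse 3 stood apart in 3 of them. Its percent of reads on mitochondrial genes was 18%, its number of detected genes was 12601, and the Lpar2 share of its summed receptor FPKM was 6.08%, against 1.36% to 1.64% in MYO5B-knockout mice 5, 6 and 7. The Lpar2 share rested on 15 reads of Lpar2, while Lpar3 and Lpar6 had 0 reads in that library.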

How the results depend on the processing

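Precision was limited by 3 or 4 mice per group and, for Lpar2, Lpar6 and Enpp2, by few reads. The count of called LPA receptors and autotaxin between MYO5B-knockout and control mice was 0 of 6. It became 1 (Lpar1) after median-ratio scaling, after quantile normalization, with edgeR and without the 2 few-gene libraries, and 2 (Lpar1 and Lpar2) with DESeq2. Each of these settings also called more genes in all than the 316 of 15729 called by limma on the 10 libraries. The cause was not tested. With LPA the count of called LPA receptors and autotaxin was 0 in every alternative run. The count of called pathway genes between MYO5B-knockout and control mice was 1 of 52. It became 2 after quantile normalization (Agpat3 and Gpr34), where 804 of 15729 genes were called. Without the 2 few-gene libraries it became 2 (Agpat3 and Acp6), where 4.95% of all genes were called. With DESeq2 it became 6 (5 lower and 1 higher), where 11.6% of all genes were called. It was 0 with only the 2 groups compared, which has fewer samples, and 0 to 1 with each library left out. The number of pairs of genes that differed in level, 17 of 21, was 17 in each alternative run. Signs turned between MYO5B-knockout and control mice for Lpar5 (-0.099 after median-ratio scaling, -0.050 after quantile normalization, -0.029 with DESeq2, and -0.49 to 0.81 with each library left out). They turned for Lpar6 (0.036 with a pseudocount of 1, 0.19 without the 2 few-gene libraries, 0.56 without the 2 libraries with no Y-linked reads, and -0.54 to 0.56 with each library left out) and for Enpp2 (-0.66 to 0.12 with each library left out). With LPA, signs turned without the 2 few-gene libraries for Lpar1 (-0.057) and Lpar3 (-0.37), without the 2 libraries with no Y-linked reads for Lpar3 (-0.64), after quantile normalization for Lpar2 (-0.069) and with a pseudocount of 0.01 for Lpar6 (0.41). With each library left out, the log2 fold change with LPA ranged from -0.057 to 0.65 for Lpar1, -0.37 to 1.43 for Lpar3 and -0.86 to 0.31 for Lpar6. No paired analysis was possible because the groups compared share only mouse number 5.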
